A study of Mus musculus with 16 samples.

Results

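The 32 genes described here mark endothelial cells or act in blood vessel formation, and were taken by their gene symbol from the 26411 genes counted in whole mouse embryos. All 32 were found, and all 32 passed the filter on low counts that left 15679 genes for testing. RNA was sequenced from 16 single E9.5 embryos on an FVB and BALB/c hybrid background, 4 of each of 4 genotypes, each with 2 females and 2 males. Kat6a+/+Kat6b+/+ embryos were the wild type. Kat6a-/-Kat6b+/+ embryos carried a germline null allele of Kat6a, the gene of a histone acetyltransferase, from which several exons are deleted in every cell. Kat6a+/+Tg(Kat6b) embryos carried extra copies of the related acetyltransferase gene Kat6b on a bacterial artificial chromosome transgene, inserted in multiple copies in a single founder line and driven by the clone's own Kat6b sequences. Kat6a-/-Tg(Kat6b) embryos carried both alterations. The question behind the comparisons was how far additional KAT6B takes the place of KAT6A.

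Endothelial cells line all blood vessels and the heart. In the mid-gestation embryo the first vessels form from mesodermal precursors, a step started by the ETS factor ETV2 and then maintained by other ETS factors and by SOX factors. Vessel growth is driven through receptors for vascular endothelial growth factors (VEGF) and for angiopoietins, and Notch and apelin signalling help to set arterial and venous character. A whole embryo holds endothelium beside many other cell types, so that in these bulk samples fewer endothelial cells and less RNA per endothelial cell cannot be told apart.

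The libraries held between 14407277 and 45665680 counts on genes. Kat6b was at 42.6 to 51 CPM (counts per 1000000 counts of a library, scaled by the TMM method of edgeR) in the 8 embryos without the transgene and at 155 to 227 in the 8 with it. Kat6a counts over the whole gene were at 176 to 218 CPM in the wild-type and Kat6a-/-Kat6b+/+ embryos and do not check the Kat6a genotype, since the null allele lacks only some exons. Kat6a+/+Tg(Kat6b) replicate 1 stood apart: the median of 778 genes longer than 8000 bases, with a mean log2 CPM above 3, was -0.27 on the log2 scale there, relative to the other embryos of its genotype, against at most 0.12 in either direction in the other 15 embryos, and its Kat6b level was the lowest of the transgenic embryos. The members called in each comparison are therefore also given without it where they change. The embryos came from 6 litters. Wild-type embryos shared 2 litters with Kat6a-/-Kat6b+/+ embryos and 2 others with Kat6a+/+Tg(Kat6b) embryos, while the 2 litters of the Kat6a-/-Tg(Kat6b) embryos held no other genotype, so that litter and genotype cannot be told apart for them. The wild-type males came from the litters shared with Kat6a-/-Kat6b+/+ embryos and the wild-type females from the litters shared with Kat6a+/+Tg(Kat6b) embryos. The Kat6a-/-Kat6b+/+ embryos were all female in one of their litters and all male in the other. All comparisons share embryos with one another, and they are given side by side.

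The 32 genes lie on 14 chromosomes of GRCm39 in the GENCODE M39 annotation. Of those described most closely below, Cldn5 spans chr16:18595597-18597012, Cdh5 chr8:104828231-104871143, Nrp1 chr8:129085085-129231082, Tek chr4:94627291-94763224, Tie1 chr4:118328385-118347261 and Kdr chr5:76093487-76139884, all protein-coding genes. To show the DNA beside which transcription of the members named most often below starts, the stretch before the start of the canonical transcript is printed for 4 of the 6 members that passed the threshold in at least one test. Each was taken from the 250 bases before the start, cut where these hold an annotated exon, and is written 5′ to 3′ in the direction of transcription. Capitals mark GGAA or its reverse TTCC, the core letters of ETS binding sites.
Cldn5, chr16:18595437-18595596, strand plus: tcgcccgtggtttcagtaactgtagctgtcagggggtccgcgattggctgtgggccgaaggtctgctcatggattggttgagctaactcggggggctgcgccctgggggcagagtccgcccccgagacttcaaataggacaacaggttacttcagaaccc
Tek, chr4:94627041-94627290, strand plus: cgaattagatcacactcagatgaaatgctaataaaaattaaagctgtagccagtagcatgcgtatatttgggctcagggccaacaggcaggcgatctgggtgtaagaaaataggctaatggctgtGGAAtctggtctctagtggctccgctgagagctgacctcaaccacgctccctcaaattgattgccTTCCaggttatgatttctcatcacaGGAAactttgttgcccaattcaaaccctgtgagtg
Tie1, chr4:118347262-118347508, strand minus: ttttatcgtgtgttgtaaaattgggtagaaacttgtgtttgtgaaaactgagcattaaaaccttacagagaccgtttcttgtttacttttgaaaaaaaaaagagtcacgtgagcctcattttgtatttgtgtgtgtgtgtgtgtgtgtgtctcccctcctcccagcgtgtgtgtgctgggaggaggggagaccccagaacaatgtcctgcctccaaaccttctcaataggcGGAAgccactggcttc
Kdr, chr5:76139119-76139368, strand minus: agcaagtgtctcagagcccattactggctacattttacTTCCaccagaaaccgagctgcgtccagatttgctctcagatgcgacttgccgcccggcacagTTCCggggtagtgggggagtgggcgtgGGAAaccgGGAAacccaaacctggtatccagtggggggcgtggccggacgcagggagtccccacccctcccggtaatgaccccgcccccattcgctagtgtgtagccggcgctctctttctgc
For Nrp1 the 250 bases hold 202 annotated exon bases, and none are printed. GGAA or TTCC occurred in the full 250 bases of 31 of the 32 members (96.9%) and in 93.9% of the 21738 protein-coding genes searched, and Cldn5 was the member without it. Longer words that contain this core were AGGAAG, found on either strand before 46.9% of the members and 28.9% of all genes, CCGGAA before 6.25% and 12.4%, and AACAGGAA, a joined forkhead and ETS word, before 6.25% and 1.9%. The SOX word AACAAT was found before 12.5% of the members and 9.65% of all genes, and the GATA word AGATAA before 9.38% and 9.61%. These matches describe letters only, and no binding was measured.

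Endothelial RNA was readily detected in wild-type embryos at E9.5. Per length and library size (RPKM, which allows levels to be compared between genes), the highest members were Plvap, the protein of the diaphragms of endothelial vesicles and pores, at 33.6 ± 1.27 RPKM (SD, n = 4), and Egfl7, a protein secreted by endothelium, at 28.3 ± 3.05 RPKM (SD, n = 4). Ets1, an ETS factor that is also made by cells other than endothelium, was at 24.7 ± 1.06 RPKM (SD, n = 4), and Cdh5, the cadherin of endothelial junctions, at 24.2 ± 1 RPKM (SD, n = 4). The lowest members were transcription factors: Etv2, needed in the earliest endothelial precursors, was at 2.08 ± 0.505 RPKM (SD, n = 4), and Sox17, an arterial SOX factor, at 1.9 ± 0.2 RPKM (SD, n = 4). The other defining genes lay between these. Kdr, the main signalling receptor for VEGF, was at 14.3 ± 0.773 RPKM (SD, n = 4), Pecam1, an adhesion molecule of endothelium and some blood cells, at 12.2 ± 0.584 RPKM (SD, n = 4), and Tek, the angiopoietin receptor TIE2, at 6.55 ± 0.139 RPKM (SD, n = 4). In this order only 4 of the 31 pairs of neighbours did not overlap, those below Plvap, Ramp2, Fli1 and Icam2, so that most neighbouring ranks do not differ beyond the spread between embryos. Ranks by CPM, which does not allow for length, were others: Plvap was at rank 5 and Ets1 at rank 1.

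**Figure D1:**
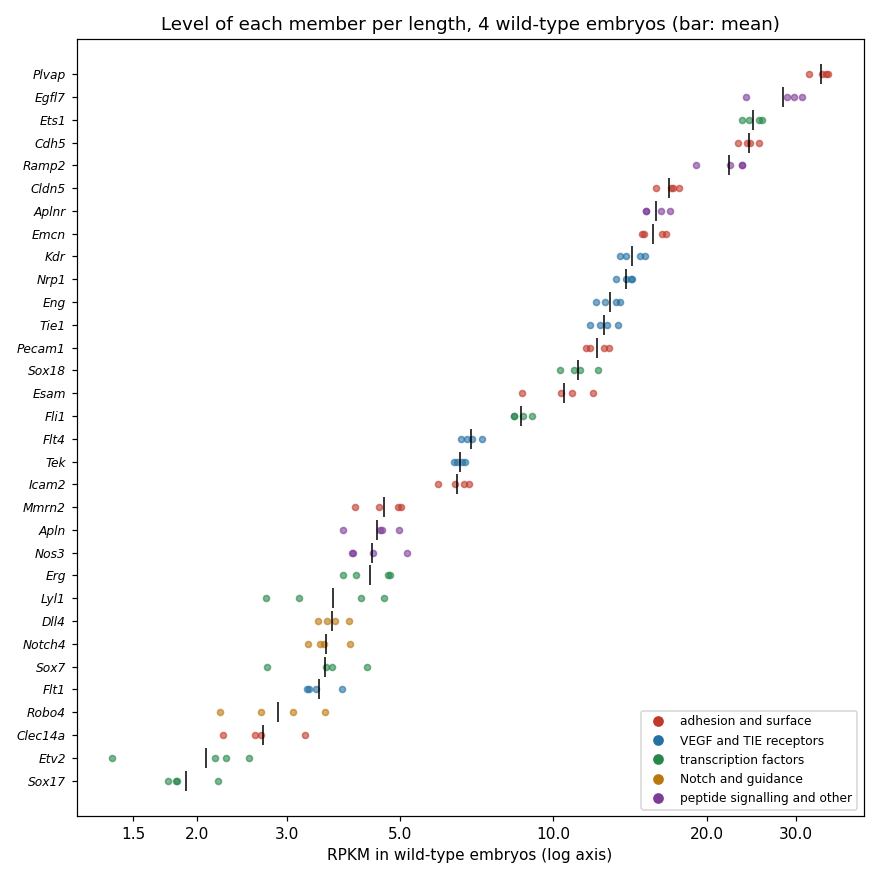
Level of each of the 32 members in the 4 wild-type embryos, in RPKM on a log axis, coloured by role. Points are single embryos and the bar is their mean. Levels run from 33.6 RPKM for Plvap to 1.9 RPKM for Sox17, and most neighbours overlap.

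Over the 4 genotypes the members moved little. Of the 512 values of 32 members in 16 embryos, 507 lay within 0.5 of the wild-type mean on the log2 scale, and the lowest (-0.99) and the highest (0.65) were both of Etv2, which had as few as 25 counts in a library. The summed level of the 32 members was 1134 ± 38.7 CPM (SD, n = 4) in wild-type embryos, 1167 ± 27.2 CPM (SD, n = 4) in Kat6a-/-Kat6b+/+ embryos, 1093 ± 49.4 CPM (SD, n = 4) in Kat6a+/+Tg(Kat6b) embryos and 1167 ± 37.5 CPM (SD, n = 4) in Kat6a-/-Tg(Kat6b) embryos. The ranges of the 4 genotypes overlapped.

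**Figure D2:**
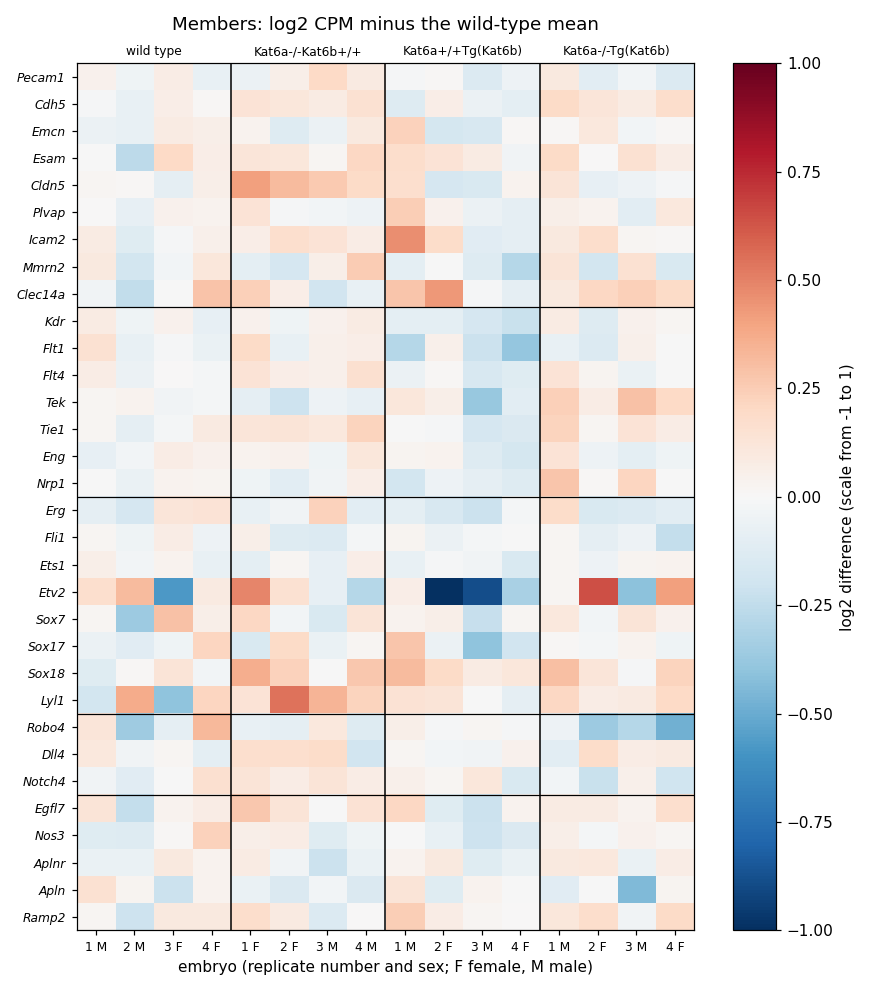
Log2 CPM of each member minus its wild-type mean, one column per embryo, grouped by genotype. Rows are grouped by role from top to bottom: adhesion and surface, VEGF and TIE receptors, transcription factors, Notch and guidance, peptide signalling and other. Pale colours prevail, the Cldn5 row is darker in the 4 Kat6a-/-Kat6b+/+ embryos, and the strongest single cells are those of Etv2.

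Without KAT6A, 1 of the 32 members was higher than in wild-type embryos and none was lower. Cldn5, the main claudin of endothelial tight junctions, was at 24.3, 24.1, 22.5 and 25 CPM in wild-type replicates 1 to 4 and at 31.9, 29.8, 28.7 and 27.3 CPM in the Kat6a-/-Kat6b+/+ embryos. All 4 embryos without KAT6A lay above all wild-type embryos. The difference was 0.29 on the log2 scale (SE 0.0757, 1.22-fold, edgeR quasi-likelihood test, FDR = 0.0487), close to the threshold of 0.05. Over all genes tested, 1.88% were called in this comparison, 0.944% higher and 0.938% lower, against 1 of the 32 members (3.12%). Within the litters shared with wild-type embryos, 2 Kat6a-/-Kat6b+/+ embryos were on average above their 1 wild-type littermate by 0.35 in one and by 0.21 in the other on the log2 scale. In the first these 2 were female and the littermate male, and in the second all were male, so that sex and litter cannot be told apart. With litter as a block, however, the FDR was 0.506, in a fit that called 18 genes in all. The call was kept in 5 of the 16 fits that left out 1 embryo. It was lost without any of the wild-type embryos, Kat6a-/-Kat6b+/+ replicates 1 to 3, Kat6a+/+Tg(Kat6b) replicate 4 or Kat6a-/-Tg(Kat6b) replicates 2 to 4, where the log2 difference ranged over all 16 fits from 0.25 to 0.34 and the FDR from 0.02 to 0.166.

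The other members were close to the wild type. The log2 differences ran from -0.11 to 0.32 with a median of 0.03 (0.00 over all genes), 24 of 32 were above 0 (75%, against 51.2% of all genes), and 5 members had an unadjusted p under 0.05 (15.6%, against 15.2% of all genes). For 31 members the 95% interval of the difference lay within a 1.5-fold change in either direction, and for 27 within 1.25-fold; for Lyl1 it did not. Lyl1, a blood and endothelial transcription factor, had the highest estimate, with 8.1 ± 1.01 CPM against 6.64 ± 1.61 CPM (SD, n = 4), followed by Cldn5 and by Sox18, a SOX factor of endothelial and lymphatic precursors, with 21.1 ± 2.17 CPM against 18.1 ± 1.27 CPM (SD, n = 4). The lowest estimates were those of Tek, of Apln, the secreted peptide apelin, and of Aplnr, its receptor, at -0.11, -0.11 and -0.06. None of these but Cldn5 passed the threshold.

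Besides Cldn5, Cdh5 and Tie1, an orphan receptor related to TIE2, were higher and Tek was lower in all 4 Kat6a-/-Kat6b+/+ embryos than in all 4 wild-type embryos. Of all genes tested, 7.97% did not overlap in this way. Each of the 4 had p = 0.0286 in a two-sided exact permutation test, the smallest p that 4 embryos against 4 allow, and an adjusted p of 0.392 over the 96 such tests. Every gene without overlap reaches this p, so that it adds nothing to the lack of overlap. Cdh5 was at 95.7, 91.7, 101 and 97 CPM in wild-type embryos and at 106, 104, 102 and 107 CPM in the Kat6a-/-Kat6b+/+ embryos. This difference of 0.12 on the log2 scale did not pass the threshold (edgeR FDR = 0.14).

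Markers of macrophages were higher in the same embryos, and Cgnl1, the junction protein paracingulin counted here as a marker of endocardium, the endothelium of the heart, was higher as well. Of 10 macrophage markers, 7 were tested and Ptprc, Csf1r, Mrc1 and Itgal were called higher. The markers were chosen with earlier results of these data known, so that these calls are a description only. The 10 summed to between 10 and 22.3 CPM without KAT6A and to between 3.65 and 10.6 CPM in wild-type embryos. Cgnl1, the 1 of 5 endocardial markers that was called, differed by 0.22 on the log2 scale (SE 0.0464, edgeR FDR = 0.0156), while Npr3 was at -0.25 (FDR = 0.0685) and Hapln1 at 0.03 (FDR = 0.717). The summed markers of visceral endoderm and yolk sac were at 10 to 18 CPM without KAT6A and at 15.4 to 56.1 CPM in wild-type embryos, with none called. No marker of the erythroid, megakaryocyte, mural or heart muscle lists was called in this comparison. The part of the macrophages in the values of Cldn5 and of Lyl1 was not tested.

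**Figure D3:**
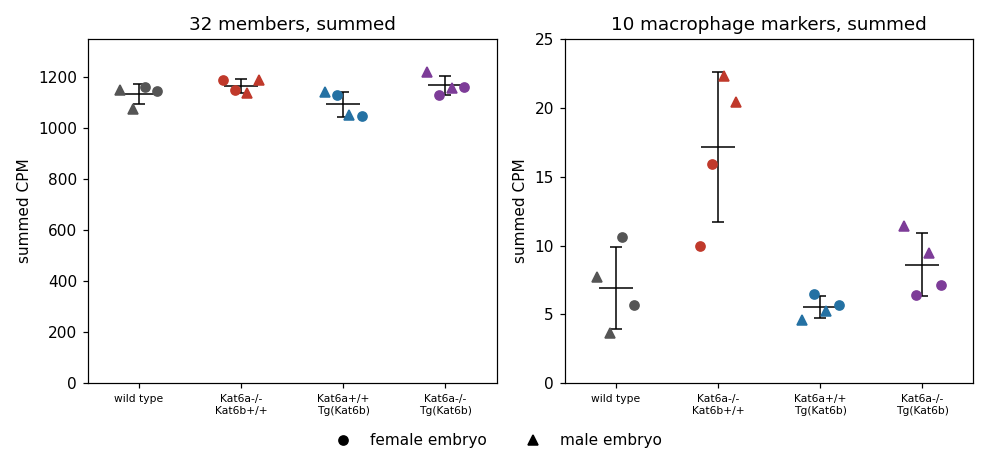
Summed CPM of the 32 members (left) and of 10 macrophage markers (right) in each embryo by genotype, with mean and SD of 4 embryos. Circles are female and triangles male embryos. The member sums overlap between genotypes, at 1049 to 1220 CPM, while the macrophage markers reach 22.3 CPM in the Kat6a-/-Kat6b+/+ embryos.

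With the transgene alone, no member was called against the wild type, and neither DESeq2 nor limma-voom called one. Over all genes 0.140% were called, 0.0574% higher and 0.0829% lower. The log2 differences of the members ran from -0.39 to 0.18 with a median of -0.04 (0.00 over all genes). Of the 32 members 9 were above 0 (28.1%, against 50.8% of all genes), and 4 had an unadjusted p under 0.05 (12.5%, against 11.5% of all genes). All 7 receptors and coreceptors of the VEGF and TIE families, here counted with the TGF-beta coreceptor gene Eng, were below 0, with a median of -0.09 and a range from -0.20 for Flt1, a VEGF receptor, to -0.06 for Tek.

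Kdr was the member whose Kat6a+/+Tg(Kat6b) embryos did not overlap the wild type, where 4.00% of all genes did not. Its levels were 119, 109, 116 and 106 CPM in wild-type embryos and 105, 105, 100 and 96.4 CPM in the Kat6a+/+Tg(Kat6b) group. The gap between the lowest wild-type and the highest transgenic embryo was small. The difference was -0.15 on the log2 scale (SE 0.0438, edgeR FDR = 0.175, unadjusted p = 0.00257), and -0.17 and -0.13 within the litters shared with wild-type embryos. Kdr did pass the test for any difference among the 4 genotypes (edgeR FDR = 0.0304), as did Cdh5, Tie1, Cldn5 and Nrp1, which makes 5 of 32 members (15.6%) against 11.5% of all genes. The call of Kdr was kept in 8 of the 16 fits that left out 1 embryo, with an FDR between 0.018 and 0.0873. It was lost without Kat6a-/-Kat6b+/+ replicates 1, 3 or 4, Kat6a+/+Tg(Kat6b) replicates 1, 3 or 4 or Kat6a-/-Tg(Kat6b) replicates 3 or 4, and with no or 1 surrogate variable. Cldn5 lost this call without Kat6a-/-Kat6b+/+ replicates 1 or 2. Without Kat6a+/+Tg(Kat6b) replicate 1 the members called were Cldn5, Tek, Tie1, Cdh5 and Nrp1.

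Etv2 had the lowest estimate in the transgenic embryos and also the widest interval. It was at 2.39, 2.65, 1.43 and 2.27 CPM in wild-type embryos and at 2.23, 1.07, 1.15 and 1.7 CPM in the Kat6a+/+Tg(Kat6b) group. The values overlapped, the difference of -0.39 on the log2 scale had an edgeR FDR of 0.525, and Etv2 was the member whose 95% interval reached past 1.5-fold. Etv2 was at 2.99, 2.37, 2.01 and 1.75 CPM in Kat6a-/-Kat6b+/+ embryos and at 2.16, 3.33, 1.6 and 2.83 CPM in the Kat6a-/-Tg(Kat6b) group, and none of its differences passed the threshold in the fit of all embryos. In fits of one sex alone, with 2 embryos per genotype, its log2 difference between the transgenic genotypes was 1.14 in females (edgeR FDR = 0.021) and 0.18 in males (FDR = 0.883). Flt1 and Erg were the next lowest, with 33.1 ± 4.43 CPM against 38 ± 2.91 CPM and 13.9 ± 0.825 CPM against 15.2 ± 1.59 CPM (SD, n = 4). The highest estimates were those of Sox18, of Clec14a, a lectin of the endothelial surface, and of Icam2, an adhesion molecule of resting endothelium, at 0.18, 0.16 and 0.14. None of them passed the threshold.

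In embryos with both alterations no member was called against the wild type by edgeR or limma-voom, while DESeq2 called Cdh5 and Nrp1. By edgeR 0.670% of all genes were called, 0.274% higher and 0.395% lower. The differences ran from -0.20 to 0.19 on the log2 scale with a median of 0.03 (0.00 over all genes), 22 of 32 were above 0 (68.8%, against 48.8% of all genes), and 4 members had an unadjusted p under 0.05 (12.5%, against 12.7%). All 32 intervals lay within 1.5-fold, and 24 within 1.25-fold. Without Kat6a+/+Tg(Kat6b) replicate 1, the embryo that stood apart, edgeR called Cdh5 (FDR = 0.0421) and Nrp1 (FDR = 0.0445), at log2 differences of 0.16 and 0.17.

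Cdh5 and Tek were higher in all 4 Kat6a-/-Tg(Kat6b) embryos than in all wild-type embryos, where 7.10% of all genes did not overlap. Cdh5 was at 110, 105, 102 and 109 CPM in these embryos. Its log2 difference from the wild type was 0.16 (SE 0.0427, edgeR FDR = 0.0813). Tek was at 36.3, 32.4, 37.7 and 35.3 CPM against 31.2, 31.5, 30.1 and 30.4 CPM in wild-type embryos. Its difference of 0.19 had an edgeR FDR of 0.361. Nrp1, the VEGF coreceptor neuropilin, and Clec14a came next among the highest estimates, both at 0.17. Which cells of the whole embryo carried the Nrp1 RNA was not tested, here and in the comparisons below. The lowest were Robo4, an endothelial guidance receptor, at 8.83 ± 1.14 CPM against 10.9 ± 2.19 CPM, Apln at 13 ± 1.82 CPM against 14.2 ± 1.47 CPM and Fli1, an ETS factor of endothelium and blood, at 27.8 ± 2.13 CPM against 29.6 ± 1.2 CPM (SD, n = 4). Among the endocardial markers Hapln1, a linker of the hyaluronan matrix, was called higher and Npr3, the natriuretic peptide clearance receptor, lower in the same embryos, at 0.16 and -0.43 on the log2 scale (edgeR FDR = 0.049 and 0.00617).

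**Figure D4:**
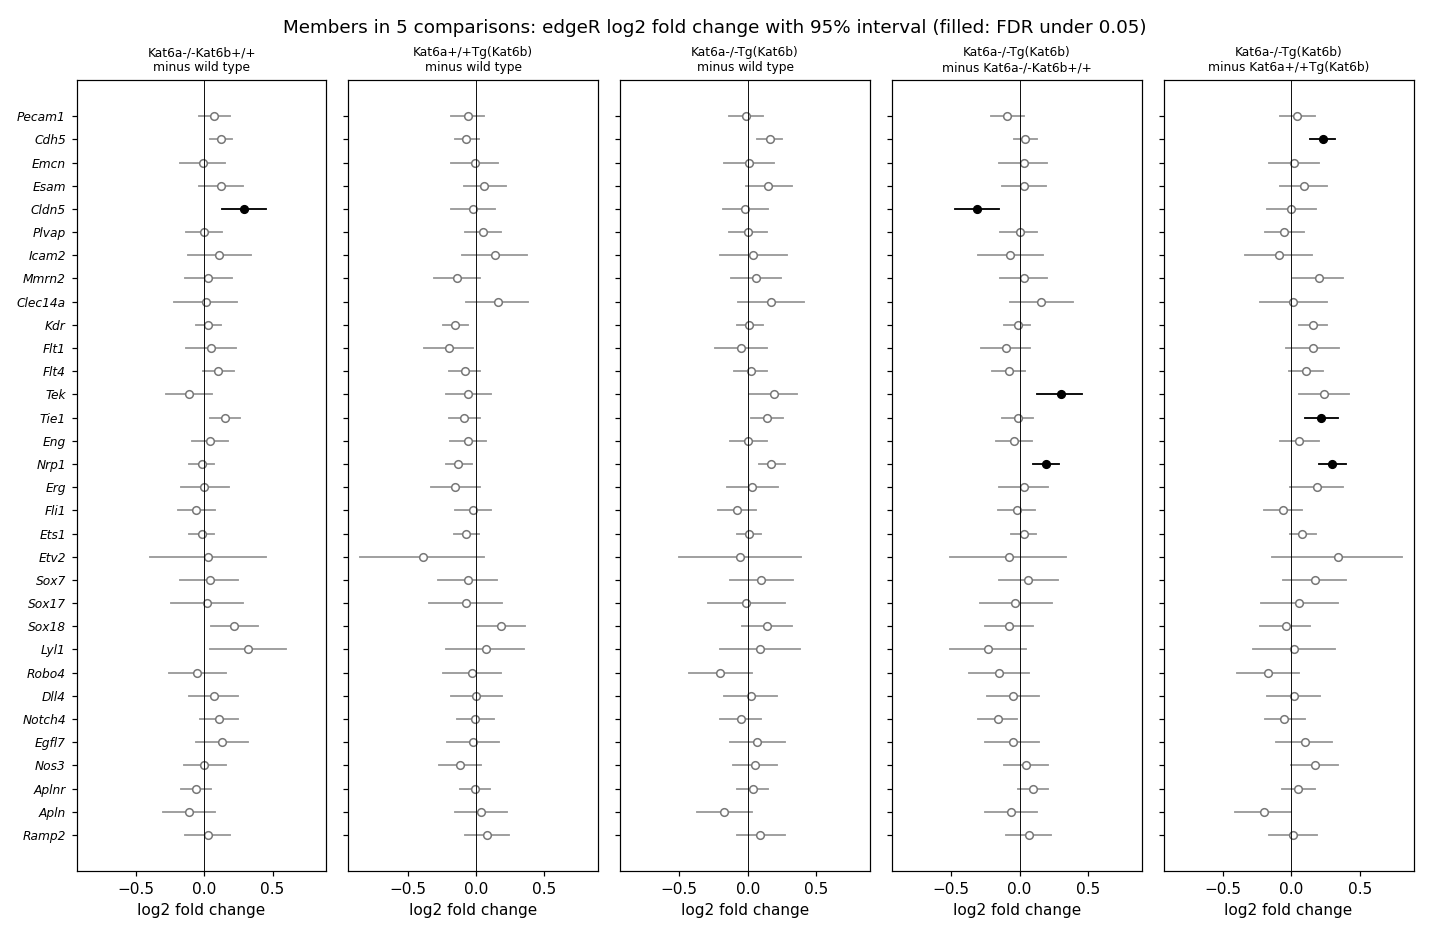
Log2 fold change of each member with its 95% interval from the edgeR fit, in 5 comparisons. Filled points passed FDR 0.05. Only Cldn5, Tek, Nrp1, Cdh5 and Tie1 have a filled point, and the widest intervals are those of Etv2.

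Between embryos with both alterations and those without KAT6A alone, 3 of 32 members were called, Tek and Nrp1 higher with both and Cldn5 lower. These genotypes shared no litter, so that litter and genotype cannot be told apart in this comparison. Over all genes 7.14% were called in this comparison, 3.39% higher and 3.74% lower, against 9.38% of the members. Cldn5 was at 26.2, 22.6, 23.1 and 23.7 CPM in the Kat6a-/-Tg(Kat6b) group. The difference was -0.31 on the log2 scale (SE 0.0771, 0.807-fold, edgeR FDR = 0.0192), and against the wild type it was -0.02 with a 95% interval from -0.18 to 0.15. In Kat6a+/+Tg(Kat6b) embryos Cldn5 was at 26.9, 21.3, 21.5 and 24.5 CPM, also -0.02 from the wild type. Tek was at 29, 26.7, 29.7 and 29.1 CPM in Kat6a-/-Kat6b+/+ embryos, below the wild-type embryos, and 0.30 higher on the log2 scale with the transgene (SE 0.0814, 1.23-fold, edgeR FDR = 0.0323). In Kat6a+/+Tg(Kat6b) embryos Tek spread more widely, at 33.4, 32.1, 23.7 and 28.6 CPM.

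Nrp1 was at 82.4, 78.8, 84.6 and 84.2 CPM in wild-type embryos, at 80.1, 76.8, 80.6 and 86.2 CPM in Kat6a-/-Kat6b+/+ embryos and at 99.9, 83, 95.6 and 82.3 CPM in the Kat6a-/-Tg(Kat6b) group. The 2 high embryos of the last group, replicates 1 and 3, were its males, and its females lay within the range of the wild type. The difference between the genotypes without KAT6A was 0.19 on the log2 scale (SE 0.0447, 1.14-fold, edgeR FDR = 0.0123). It was 0.15 with an FDR of 0.113 when sex from the labels took the place of the surrogate variables, and in fits of one sex alone it was 0.23 in males (FDR = 0.365) and 0.08 in females (FDR = 0.372). Leaving out Kat6a-/-Tg(Kat6b) replicate 1 raised the FDR of Nrp1 to 0.0772. The FDR of Cldn5 reached up to 0.0997 without Kat6a-/-Kat6b+/+ replicates 1 or 2 or Kat6a-/-Tg(Kat6b) replicates 2, 3 or 4, and that of Tek up to 0.0953 without Kat6a-/-Kat6b+/+ replicates 1, 2 or 4 or Kat6a-/-Tg(Kat6b) replicates 1, 3 or 4.

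The remaining members differed less between these genotypes. The range was -0.31 to 0.30, the median -0.02 (0.00 over all genes), and 4 members had an unadjusted p under 0.05 (12.5%, against 23.2% of all genes). Of the 32 members 13 were above 0 (40.6%, against 48.6% of all genes). All 32 intervals lay within 1.5-fold. Clec14a followed Tek and Nrp1 at the upper end, with 13.8 ± 0.566 CPM against 12.3 ± 1.61 CPM, and Lyl1 and Notch4, a Notch receptor of endothelium, followed Cldn5 at the lower end, with 7.18 ± 0.35 CPM against 8.1 ± 1.01 CPM and 22.1 ± 1.99 CPM against 25.3 ± 0.503 CPM (SD, n = 4). Rgs5, 1 of 8 markers of mural cells tested, was higher in the same comparison by 0.74 (SE 0.186, edgeR FDR = 0.0262), the endocardial marker Hapln1 by 0.13 (FDR = 0.0374) and Dcn, a matrix proteoglycan and 1 of 3 tested markers of decidua and adult globin, by 0.92 (FDR = 0.00173), and Mrc1 of the macrophage list was lower, at -0.90 (SE 0.213, edgeR FDR = 0.0149). The median of the 3 tested markers of decidua and adult globin was -0.40, the other way from Dcn, and Prl8a2 of that list had no counts in any embryo. The part of the cells that all these markers stand for in the members' values was not tested.

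Between the 2 genotypes with the transgene 3 members were called, all higher without KAT6A: Nrp1, Cdh5 and Tie1. Over all genes 3.41% were called, 2.28% higher and 1.14% lower, against 9.38% of the members. Nrp1 was at 72.8, 79.5, 77.5 and 75.5 CPM in the Kat6a+/+Tg(Kat6b) group. The difference was 0.30 on the log2 scale (SE 0.0476, 1.23-fold, edgeR FDR = 0.00197) and passed the threshold in all 16 fits that left out 1 embryo, with values from 0.24 to 0.34. In males alone it was 0.38 (FDR = 0.0451) and in females alone 0.09 (FDR = 0.314).

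Cdh5 was at 87.9, 101, 92.5 and 90.1 CPM in the Kat6a+/+Tg(Kat6b) group. It was higher in the Kat6a-/-Tg(Kat6b) group by 0.23 on the log2 scale (SE 0.0443, 1.17-fold, edgeR FDR = 0.009). This call too was kept in all 16 fits that left out 1 embryo, at 0.19 to 0.27. In fits of one sex alone it did not pass, with 0.24 in males (FDR = 0.215) and 0.17 in females (FDR = 0.0592). Tie1 was at 49.4, 45.8, 48 and 52 CPM in wild-type embryos, at 53, 53.4, 52.4 and 56.8 CPM in Kat6a-/-Kat6b+/+ embryos, at 48.5, 48.4, 43.5 and 44.2 CPM in the Kat6a+/+Tg(Kat6b) group and at 57, 49.5, 53.5 and 51.3 CPM in the Kat6a-/-Tg(Kat6b) group. Both genotypes without KAT6A were thus at the upper end. The difference between the transgenic genotypes was 0.22 (SE 0.0582, 1.17-fold, edgeR FDR = 0.0367). It did not pass in 8 of the 16 fits, those without Kat6a-/-Kat6b+/+ replicates 1 or 2, Kat6a+/+Tg(Kat6b) replicates 3 or 4 or any of the Kat6a-/-Tg(Kat6b) embryos, where the FDR reached up to 0.142. With sex as a covariate in place of the surrogate variables it was 0.19 (FDR = 0.0661).

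All 7 genes of the VEGF and TIE receptor group were above 0 in this comparison, with a median of 0.16 and a range from 0.06 for Eng to 0.30 for Nrp1. Over the 32 members the median was 0.06 (-0.01 over all genes), the range -0.20 to 0.34, 24 were above 0 (75%, against 47.5% of all genes), and 7 had an unadjusted p under 0.05 (21.9%, against 18.9%). Etv2 had the highest estimate, with 2.48 ± 0.758 CPM against 1.54 ± 0.541 CPM (SD, n = 4, edgeR FDR = 0.451), and was the member whose interval reached past 1.5-fold. Tek was at 0.24 (edgeR FDR = 0.125). Apln, Robo4 and Icam2 were lowest, at -0.20, -0.17 and -0.09. In the same comparison the endocardial markers Cgnl1 and Hapln1 were higher by 0.33 and 0.22 (edgeR FDR = 0.00197 and 0.00565) and Npr3 was lower, at -0.32 (FDR = 0.0273). The macrophage markers Csf1r and Mrc1 were higher by 1.07 and 1.15 (FDR = 0.0475 and 0.0201). Rgs5 was higher by 0.84 (FDR = 0.0327) and Dcn by 0.79 (FDR = 0.0131), while the median of the 3 tested genes of the decidua and adult globin list was -0.15.

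**Figure D5:**
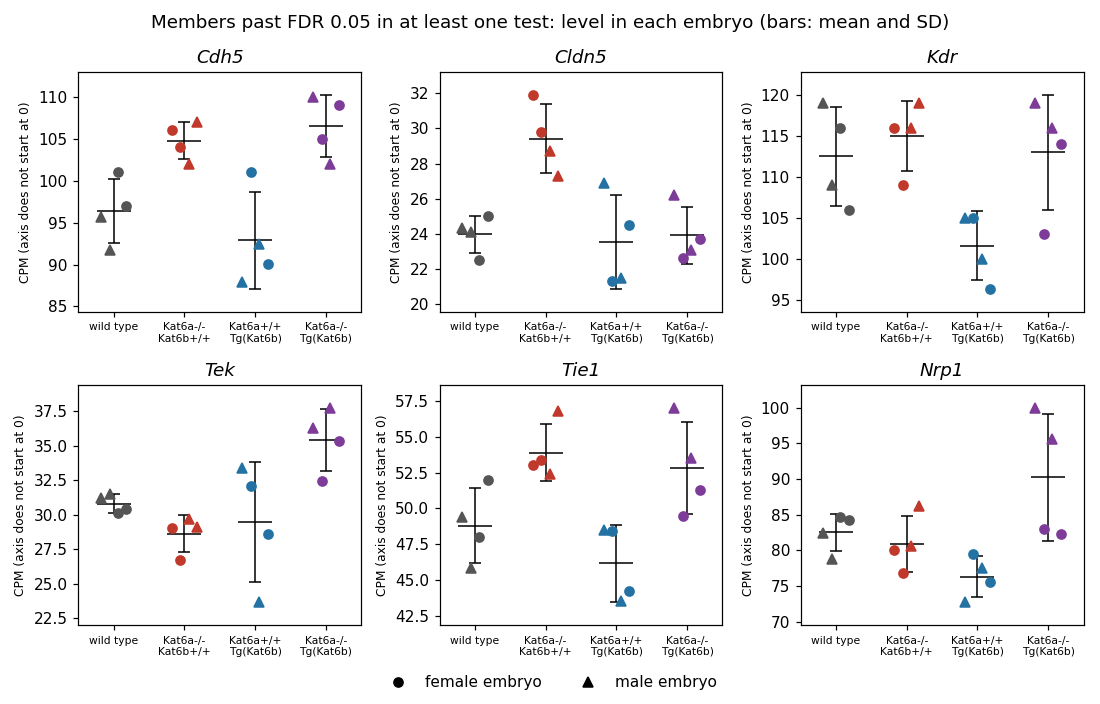
CPM of the 6 members that passed FDR 0.05 in at least one test, in each embryo by genotype, with mean and SD of 4 embryos. The axes do not start at 0. Circles are female and triangles male embryos. Cldn5 is highest in the Kat6a-/-Kat6b+/+ embryos, Kdr is lowest in the Kat6a+/+Tg(Kat6b) embryos, and the 2 male Kat6a-/-Tg(Kat6b) embryos stand above the others for Nrp1.

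Whether the effect of losing KAT6A depended on the transgene was tested by the interaction of both, for which 0.153% of all genes were called, 0.102% with a difference above 0 and 0.0510% below. Nrp1 was the 1 member of 32 that passed (3.12%). Nrp1 differed between embryos without and with KAT6A by -0.02 in the absence of the transgene and by 0.30 in its presence. The difference between these was 0.32 on the log2 scale (SE 0.064, edgeR FDR = 0.0372). Litter and genotype cannot be told apart for the Kat6a-/-Tg(Kat6b) embryos in this test. The call was kept in 4 of the 16 fits that left out 1 embryo, with a difference between 0.26 and 0.36 and an FDR between 0.0105 and 0.119. Without Kat6a+/+Tg(Kat6b) replicate 1 it was 0.29 (FDR = 0.0569), and no member was called. Those 4 were the fits without Kat6a-/-Kat6b+/+ replicates 1 or 4, Kat6a+/+Tg(Kat6b) replicate 2 or Kat6a-/-Tg(Kat6b) replicate 4. With sex in place of the surrogate variables the difference was 0.27 (FDR = 0.234). Tek had the highest estimate, 0.35 (SE 0.116, edgeR FDR = 0.186), and Cldn5 was at -0.29 (SE 0.111, edgeR FDR = 0.239). Among the markers Dcn was called, at 1.25 (edgeR FDR = 0.0181), while the median of the 3 tested genes of its list was -0.92. The part of Dcn in these values was not tested. Over the members the median was 0.01 (0.00 over all genes), 18 of 32 were above 0 (56.2%, against 49.8% of all genes), and 5 had an unadjusted p under 0.05 (15.6%, against 14.6%).

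Pecam1 and Erg, which define endothelium together with the genes above, did not pass any test. Pecam1 was at 41.9, 39.4, 42.8 and 38.7 CPM in wild-type embryos, at 39, 42.3, 46.7 and 43.3 CPM in Kat6a-/-Kat6b+/+ embryos, at 40.4, 41.1, 36.9 and 39.2 CPM in the Kat6a+/+Tg(Kat6b) group and at 43.5, 37.9, 39.8 and 37 CPM in the Kat6a-/-Tg(Kat6b) group. All 4 groups overlapped, and the differences from the wild type were 0.07, -0.06 and -0.01 on the log2 scale in that order. Erg, an ETS factor of mature endothelium, was at 14.2, 13.4, 16.4 and 16.6 CPM in wild-type embryos, at 14.3, 14.7, 17.7 and 14 CPM in Kat6a-/-Kat6b+/+ embryos, at 14.1, 13.5, 13 and 14.9 CPM in the Kat6a+/+Tg(Kat6b) group and at 17.1, 13.6, 13.7 and 14 CPM in the Kat6a-/-Tg(Kat6b) group. These groups overlapped as well, with differences of 0.00, -0.15 and 0.03.

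By role, the 8 transcription factors held no called member in any comparison. Over all genes 0.140% to 7.14% were called in the pairwise comparisons, so that the lack of a call among so few genes does not set a role apart. Against the wild type the medians of the transcription factors were 0.02 without KAT6A, -0.07 with the transgene and 0.02 with both. The 3 genes of Notch signalling and guidance, Dll4, Notch4 and Robo4, had medians of 0.07, -0.01 and -0.05, and the 5 genes of peptide signalling and other functions, Apln, Aplnr, Ramp2 (a subunit of the adrenomedullin receptor), Nos3 (endothelial nitric oxide synthase) and Egfl7, had medians of 0.00, -0.01 and 0.05. Neither held a called member. The 9 adhesion and surface genes had medians of 0.07, -0.01 and 0.04, and the 7 receptors of the VEGF and TIE group 0.04, -0.09 and 0.02. All members called in a pairwise comparison belong to these last groups.

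The members varied together from embryo to embryo more often than not. After the genotype means were removed from log2 CPM, the median correlation over the 496 pairs of members was 0.23 across the 16 embryos (0.00 over a sample of the pairs of all genes), with a range from -0.73 to 0.82, and 74.4% of the pairs were above 0. The embryos share library, depth and sex effects, so that this is a description only. Esam, an adhesion molecule of endothelial junctions, Tie1 and Flt4, a VEGF receptor, had the highest medians with the other members, at 0.43, 0.41 and 0.40. Dll4, the arterial Notch ligand, had the lowest at -0.14. The member most like Nrp1 was Mmrn2, an endothelial matrix protein (r = 0.81, 16 embryos), and that most like Tie1 was Mmrn2 too (r = 0.78), while Kdr was most like Flt1 (0.64), Cdh5 like Flt4 (0.61), Tek like Tie1 (0.57) and Cldn5 like Etv2 (0.65). Genes outside the list reached higher values, for example Psmd8 for Cldn5 (0.92) and Lhx4 for Nrp1 (0.91).

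A second list of 89 genes of vessel ligands, receptors, regulators, surface and junction proteins and hemogenic endothelium held 88 tested genes. Without KAT6A, 1 was higher than in wild-type embryos and 3 were lower. Ece1, which activates endothelin, was higher by 0.14 on the log2 scale (edgeR FDR = 0.0477). Calcrl, the receptor that pairs with RAMP2, had a log2 difference of -0.31 (FDR = 0.0304), Kit, the stem cell factor receptor, one of -0.26 (FDR = 0.0233) and Foxc2, a forkhead factor of mesoderm and vessels, one of -0.28 (FDR = 0.0085). The share called was 4.55%, against 1.88% of all genes, and the median was -0.01. The list was chosen with earlier results of these data known, so that its shares here and below are a description only.

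Of the same list none was called with the transgene alone, against 0.140% of all genes. In embryos with both alterations, 2 were called against the wild type (2.27%, and 0.670% of all genes), Podxl, a sialomucin of endothelium and other epithelia, higher by 0.22 (edgeR FDR = 0.0155) and Foxc2 lower, at -0.26 (FDR = 0.0346). Calcrl, Kit, Podxl and Mcam, an adhesion molecule of endothelial and mural cells, were higher with both alterations than without KAT6A alone, by 0.27, 0.40, 0.26 and 0.23 (FDR = 0.0327, 0.000504, 0.00115 and 0.0378). These were 4 of the 88 tested (4.55%), against 7.14% of all genes. Calcrl was at 28.9 ± 1.98 CPM in wild-type embryos, 23.3 ± 1.65 CPM in Kat6a-/-Kat6b+/+ embryos and 28.1 ± 2.02 CPM in the Kat6a-/-Tg(Kat6b) group (SD, n = 4). Kit went the same way, from 35.9 ± 2.18 to 29.9 ± 1.89 and 39.8 ± 3.4 CPM (SD, n = 4), whereas Foxc2 was at 46.4 ± 2.89, 38.5 ± 3.09 and 40.8 ± 4.18 CPM (SD, n = 4).

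Between the transgenic genotypes 7 genes of the list were higher and 1 was lower without KAT6A (9.09%, against 3.41% of all genes). Over all genes, 535 were called here, and 165 without Kat6a+/+Tg(Kat6b) replicate 1, the embryo with low values for long genes. The calls of this list and of the markers were not examined without that embryo. The scavenger receptors Stab1 and Stab2, found on sinusoidal endothelium and, for Stab1, on macrophages, were higher by 0.33 and 1.13 (edgeR FDR = 0.00306 and 0.0105). Spi1, a factor of blood cells, was higher by 1.48 (FDR = 0.0413) and Vegfd, a ligand of VEGF receptors, by 0.64 (FDR = 0.0251). The BMP receptor Bmpr2 was higher by 0.35 (FDR = 0.0468), Podxl by 0.20 (FDR = 0.0197) and Ece1 by 0.19 (FDR = 0.0136). Foxc2 was lower, at -0.35 (FDR = 0.00306). Spi1 was at 0.733 ± 0.191 CPM with both alterations and at 0.394 ± 0.218 CPM with the transgene alone (SD, n = 4). Stab2 was at 2.23 ± 0.683 and 1.25 ± 0.139 CPM in the same order (SD, n = 4). Both levels were low, and the estimates from the fit with surrogate variables were larger than the differences of these means. For the interaction no gene of the list was called by edgeR, while 19 of the 88 (21.6%) differed among the 4 genotypes, against 11.5% of all genes.

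Counts were taken per gene, and the strand setting of the counting is not given in the sources used here. Exons on the opposite strand cover more than 10% of the exon bases of 9 members, Nos3 (32.7%), Sox18 (25.8%), Icam2 (24.5%), Plvap (21.7%), Sox17 (19%), Dll4 (15.6%), Etv2 (14.6%), Egfl7 (14.3%) and Eng (11%), and 28.5% of the exon bases of Ramp2 are shared with Vps25 on its own strand. Without strand, reads from such genes cannot be told apart. Of the members that passed a test, Cldn5, Tek and Kdr have no such overlap, and Cdh5, Nrp1 and Tie1 have 1.99%, 2.19% and 4.76%. These shares refer to all exons of a gene in M39. They can span more bases than the deposited gene length, with 7425 against 1282 for Icam2 and 8003 against 1592 for Egfl7. For Cldn5 both were 1416. The shares of the bases that were counted are therefore not known. The members Plvap, Lyl1, Cdh5 and Nrp1 lie on chromosome 8, 48.5, 62, 81.4 and 106 Mb from Kat6a.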

How the data were processed

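RNA from whole E9.5 embryos was made into TruSeq libraries and sequenced in read pairs, which the authors aligned to mm39 with Rsubread. Their processing notes name featureCounts. They deposited raw counts per gene and embryo, with Entrez identifiers, symbols and gene lengths. The annotation release and the strand setting are not given in the sources used here. Groups, litter and sex came from the sample labels. From the counts, edgeR 4.0.16 in R 4.3.3 was run with filterByExpr (minimum count 10), TMM factors and 2 surrogate variables from sva 3.50.0, in a robust quasi-likelihood fit of all 16 embryos. FDR is the Benjamini-Hochberg adjusted p over all 15679 tested genes, with a threshold of 0.05. CPM and RPKM were computed from the same library sizes and the deposited lengths. Single values were also compared by exact permutation tests. Alternatives were DESeq2 1.42.0, limma-voom (limma 3.58.1), other filters, covariates and thresholds, fits of 2 genotypes and leaving out each embryo. Fits of one sex, with 2 embryos per genotype, were added after seeing the data. The scripts were tested on simulated data.

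The members, the second list and the markers were chosen with earlier results of these data known. Named with every embryo's value were members that passed any test, members not overlapping the wild type, and Pecam1, Cdh5, Kdr, Tek, Erg and Etv2. The 3 highest and 3 lowest members of each pairwise comparison were named with group values. Sequences were read from GRCm39 by the GENCODE M39 annotation, in which all 32 members matched. A stretch before one member and one gene of the likeness comparison are not reported here. Embryos are separate animals of 6 litters, and p-values take embryos as independent. Members had at least 25 counts in every library, and Etv2 had the lowest.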

Additional observations from a re-analysis of the deposited data

Results flagged for a closer look

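In 3 of 128 groups of 4 embryos, 1 embryo lay far from the other 3, where chance alone gives about 1 in 20. Erg was at 17.1 CPM in Kat6a-/-Tg(Kat6b) replicate 1 and at 13.6 to 14 CPM in the others. Sox7, a SOX factor of endothelial precursors, was at 9.81 CPM in Kat6a+/+Tg(Kat6b) replicate 3 and at 11.7 to 12 CPM in the others. Dll4 was at 11.1 CPM in Kat6a-/-Kat6b+/+ replicate 4 and at 14.3 to 14.4 CPM in the others. The Nrp1 difference between embryos without and with KAT6A was not the same with and without the transgene, by 0.32 on the log2 scale (edgeR, interaction FDR = 0.0372).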

How the results depend on the processing

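Of the log2 differences of the 9 members named with every embryo's value, 1372 values under alternative settings kept their call (or, where not called, moved by at most 1 SE), 62 uncalled values moved by more, 14 newly passed, 73 no longer passed and no called value changed sign. Leaving out 1 embryo in turn gave 0 to 1 called members for KAT6A loss, 0 to 0 for the transgene, 0 to 2 for both against the wild type, 1 to 3 and 2 to 5 for both against KAT6A loss and against the transgene, 0 to 1 for the interaction and 3 to 7 for any genotype. For KAT6A loss the 1 member became 0 at FDR 0.01, with limma-voom, no filter, no or 1 surrogate variable, sex as covariate, litter as block, and in males. Both alterations against the wild type gave 2 at FDR 0.1 and with DESeq2, 1 in females and 3 when only these genotypes were fitted; against KAT6A loss they gave 0 at FDR 0.01 and in males; against the transgene 1 in males and 1 in females. The interaction gave 0 at FDR 0.01, with no filter, no or 1 surrogate variable, sex as covariate and in either sex, and any genotype gave 2 at FDR 0.01, 0 in males and 3 in females. Fits of one sex have fewer embryos; the cause of the other changes was not tested. With the replicate number as a block the counts were 1, 0, 0, 2, 3, 1 and 5 in the order above; the numbers do not pair the embryos, since deviations of embryos with the same number correlated at -0.26 to 0.22. Etv2 and Lyl1 had the lowest counts.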
